A study of Mus musculus with 2 samples.

Results

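Adipoq is the mouse gene of adiponectin, a protein hormone that fat cells secrete. Its locus was taken as the gene, on chromosome 16 from 23146536 to 23158028 in GRCm38 (mm10, plus strand, ENSMUSG00000022878), with 100 kb on each side, a window of 211 kb. Every region of open chromatin that overlapped this window was included: 43 of 133695 peaks and 37 of 117685 hotspots in replicate 1, and 66 of 216556 peaks and 49 of 185029 hotspots in replicate 2. The mean was 54.5 ± 16.3 peaks (SD, n = 2). The regions came from DNase-seq, in which the endonuclease DNase I cuts chromatin where it is open. The cells were adipocytes at day 8 after differentiation in culture from 3T3-L1, a clonal mouse fibroblast line that turns into lipid-filled fat cells after hormonal induction. They formed 1 group of 2 biological replicates, which carried the same donor record and no stated genetic change. The sources used here do not name the inducing agents. C57BL/6J stood in the strain label, but 3T3-L1 is usually traced to Swiss mice, and the strain was treated as unknown. Whether the cultures were differentiated separately was not stated, and the spread between the libraries may be technical in part. With no control library analysed here, the values are given library by library with no test between groups.

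Adiponectin is made almost wholly by adipocytes, circulates as multimers and acts through receptors that raise fatty acid oxidation and insulin sensitivity. Its transcription starts late in adipocyte differentiation, and the nuclear receptor PPAR gamma and the C/EBP factors are known activators of the gene. The window holds 4 further protein-coding genes. Eif4a2, an RNA helicase of translation initiation, and Rfc4, a subunit of the clamp loader of DNA replication, lie upstream and served as neighbours used in many cell types. Further upstream lies Kng1, which encodes the plasma protein kininogen, and downstream lies St6gal1, a sialyltransferase of the Golgi.

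The sequences that the results turn on are given first. They were read from the GRCm38 reference, which is C57BL/6J, so the DNA of the 3T3-L1 cells may differ from them. Capitals mark letters that match a searched transcription factor motif on either strand. The first 4 are the Adipoq promoter site, the strongest upstream site, an intronic site and the farthest downstream site of the gene with a peak in both libraries, all on the plus strand. The last 2 are the promoter sites of Eif4a2 (plus strand, the part before the gene) and Rfc4 (minus strand), shown for their contrast in CpG content with the Adipoq promoter.
Adipoq promoter, chr16:23146356-23146525, capitals NFI: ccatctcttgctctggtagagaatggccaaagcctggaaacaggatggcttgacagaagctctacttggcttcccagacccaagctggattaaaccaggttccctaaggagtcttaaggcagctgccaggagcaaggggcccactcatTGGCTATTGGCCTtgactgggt
Adipoq upstream, chr16:23144476-23144645, capitals C/EBP: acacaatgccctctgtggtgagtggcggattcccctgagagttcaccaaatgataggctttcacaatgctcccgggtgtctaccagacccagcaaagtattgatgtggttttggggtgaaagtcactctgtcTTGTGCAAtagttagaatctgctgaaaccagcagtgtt
Adipoq intronic, chr16:23149616-23149905, capitals EBF: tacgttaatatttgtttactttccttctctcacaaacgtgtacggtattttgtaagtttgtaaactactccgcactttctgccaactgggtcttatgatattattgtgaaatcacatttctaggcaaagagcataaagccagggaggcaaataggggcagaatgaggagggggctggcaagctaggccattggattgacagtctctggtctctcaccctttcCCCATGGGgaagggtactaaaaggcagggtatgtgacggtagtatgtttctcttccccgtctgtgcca
Adipoq downstream, chr16:23167196-23167365, capitals NFI, glucocorticoid receptor and AP-1 in that order: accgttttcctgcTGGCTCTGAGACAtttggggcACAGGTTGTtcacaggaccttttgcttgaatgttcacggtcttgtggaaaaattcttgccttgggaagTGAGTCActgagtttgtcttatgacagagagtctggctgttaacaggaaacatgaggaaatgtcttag
Eif4a2 promoter, chr16:23107296-23107443, capitals KLF-SP: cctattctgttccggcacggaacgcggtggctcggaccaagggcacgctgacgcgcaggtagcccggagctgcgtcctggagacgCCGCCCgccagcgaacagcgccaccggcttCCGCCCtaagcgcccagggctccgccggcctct
Rfc4 promoter, chr16:23127936-23128125, capitals ETS and then KLF-SP: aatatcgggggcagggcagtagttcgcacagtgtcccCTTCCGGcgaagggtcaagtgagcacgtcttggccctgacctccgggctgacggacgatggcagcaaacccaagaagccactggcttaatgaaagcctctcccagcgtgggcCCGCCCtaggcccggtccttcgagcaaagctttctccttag

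The libraries differed as a whole. A peak here is a region of 150 bp with the authors' own value, from 1 to 150, and each value is set within its list by its percentile, the percent of peaks of that library at or below it. A hotspot is a broader stretch of raised cutting, with the −log10 of a q value that stops at a ceiling of 100. The median peak value was 45 in replicate 1 and 69 in replicate 2, and hotspots took up 1.66% and 2.80% of the genome. The depth of the libraries was unknown, and intervals given for shares of peaks are exact binomial 95% intervals that cover counting error only. Cell type markers, like the other gene lists, were chosen with earlier results of these data known. All 7 adipocyte markers examined (Pparg, Cebpa, Fabp4, Plin1, Cidec, Lpl and Slc2a4) had a promoter peak, one that reached within 1000 bp of a start site, in both libraries, against 55.3% of all protein-coding genes. None of 11 markers of preadipocytes, brown fat, blood, endothelium, muscle or liver had one in either library, but some held open sites elsewhere. The body of the endothelial gene Pecam1 held 16 peaks in replicate 1 and 29 in replicate 2, and that of the muscle gene Myog held 2 and 3, with 20.7% and 32.0% of it in hotspots. The median number of shared sites nearest to the gene and more than 1000 bp from any start was 10.5 for the 2 endothelial markers and 11 for the adipocyte markers. In such bulk libraries, fewer cells with an open site and a less open site in each cell cannot be told apart.

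Open chromatin was denser over Adipoq and its flanks than in the distant parts of the window. The peaks of both libraries merged into 70 sites, of which 33 held a peak of each library, 8 were found in replicate 1 alone and 29 in replicate 2 alone. Of the 33 shared sites, 14 had their nearest protein-coding start site at Adipoq, 8 at Eif4a2, 8 at St6gal1, 2 at Rfc4 and 1 at Kng1. By the position of their centres, 13 of the shared sites were intronic, 10 intergenic, 9 at a promoter and 1 exonic. Hotspots covered 7.44% of the window in replicate 1 and 13.2% in replicate 2. Within the gene body itself the peaks stood at 6.96 per 10 kb in replicate 1 and 16.5 in replicate 2. In the upstream stretch from 100 to 10 kb, which holds Eif4a2 and Rfc4, the figures were 1.89 and 1.67 per 10 kb, and in the downstream stretch from 10 to 100 kb they were 1 and 1.22. The density over Adipoq was thus above that of both distant stretches in each library. It was not above that of each neighbouring gene. The Adipoq body of 11493 bp held 8 peaks in replicate 1 and 19 in replicate 2. That of Eif4a2 (6693 bp) held 8 and 5, and that of Rfc4 (13795 bp) held 5 and 4. In replicate 1 Eif4a2 thus held as many peaks as Adipoq in a shorter body. However, its replicate 1 peaks that start at 23108876 and 23108896 overlap each other. Those from 23108676 onwards were weak, with values from 33 to 42, against 48 to 95 in the Adipoq body.

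**Figure D1:**
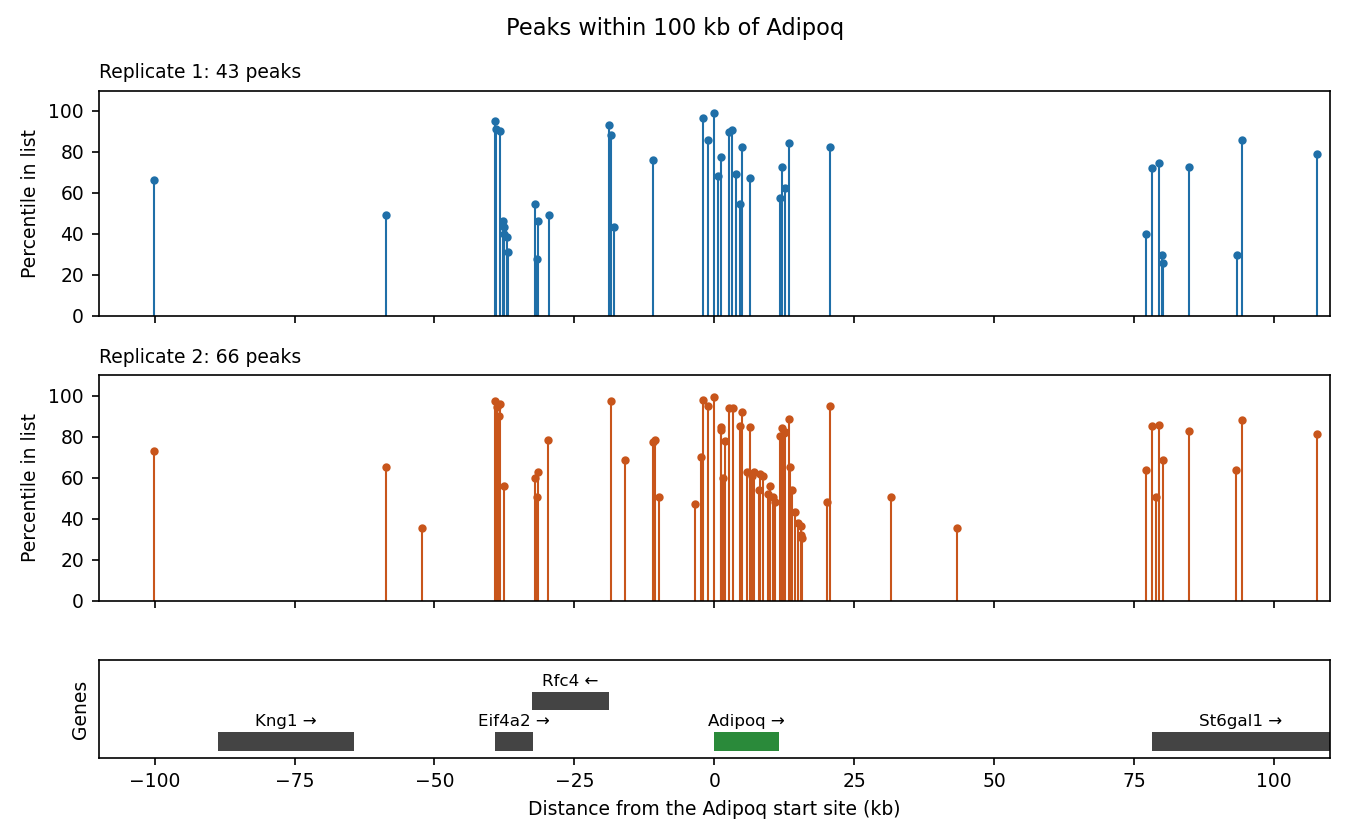
Peaks of replicate 1 (upper panel, 43 peaks) and replicate 2 (middle panel, 66 peaks) by distance from the Adipoq start site in kb, with the height of each line giving the percentile of the peak in its own list; the lower panel shows the protein-coding genes with arrows for their direction (St6gal1 runs on past the edge). Peaks gather at the Eif4a2, Rfc4 and St6gal1 promoters and over and just past Adipoq, where replicate 2 has the densest run.

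The Adipoq promoter ranked high among promoters in both libraries. Its site from 23146356 to 23146525 ends just before the annotated start and had a value of 125 in replicate 1 (percentile 99.1) and of 147 in replicate 2 (percentile 99.5). A promoter peak in both libraries was found at 55.3% of protein-coding genes (12088 of 21853). Among genes with such a peak in replicate 1, Adipoq ranked 692 of 12147 by its strongest value, and in replicate 2 it ranked 539 of 13013. The medians of the strongest value over these genes were 98 and 134, so promoter peaks in general were strong. At 522 other genes the promoter peak was at least as strong in both libraries. A second shared site, from 23147636 to 23147885 (71 and 112), reached the edge of the 1000 bp window from within the first intron. Between them a peak from 23147096 to 23147245 was found in replicate 1 alone, with a value of 60, although replicate 2 had a hotspot at the ceiling over the same bases.

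The neighbours Eif4a2 and Rfc4 had open promoters too, with somewhat lower values. Promoter sites were counted around every start site, of which Eif4a2 has 5, Rfc4 3 and Adipoq 2, so the stretches searched differed in size. At Eif4a2 there were 3 shared promoter sites, the strongest from 23107296 to 23107485 with values of 107 and 141 (percentiles 95.2 and 97.6). The other Eif4a2 sites had values of 96 and 133, and of 93 and 137. Rfc4, which shares its promoter with the long noncoding RNA 6330408M09Rik, had 1 shared site with values of 89 and 140 (percentiles 88.2 and 97.3). Beside it, at the start of Rfc4, replicate 1 alone had a peak of 101, so the strongest peak of the 2 libraries was not at the same place. In each library the value of Adipoq was the highest of the 3 genes, though all stood close together in replicate 2, near the top of the scale at 150. Of the remaining genes, Kng1 had no promoter peak in either library, and the strongest shared promoter site of St6gal1 had values of 67 and 114.

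The promoters were unlike in sequence. In the RefSeq promoter of Adipoq, which runs from 250 bp before to 50 bp after the start, there was no CpG dinucleotide at a GC content of 50%, and the promoter site printed above held none either. The RefSeq promoter of Eif4a2 held 36 CpG at an observed over expected ratio of 1.05 and a GC content of 67.7%, and that of Rfc4 held 34 CpG at a ratio of 1.00 and 67.3%. Promoters of the latter kind are known as CpG islands and are common at genes active in most tissues. Of 20143 matched RefSeq promoters, 887 had no CpG. Among the 12145 that belonged to genes with a promoter peak in both libraries the number was 99, a share of 0.815%. Among promoters of genes at least as strong as Adipoq in both libraries, Adipoq included, 0.675% had no CpG. The adipocyte markers with a matched promoter varied. Plin1, which encodes a lipid droplet coat protein, had 2 CpG, and the 2 promoters of Cidec, a gene of lipid droplet growth, had 6 and 7. The transcription factor gene Cebpa had 29 CpG at a ratio of 0.853, and the 3 promoters of Pparg had 44, 13 and 2. The neighbour St6gal1 had 6 to 10 CpG at its 3 promoters, at ratios from 0.328 to 0.531.

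**Figure D2:**
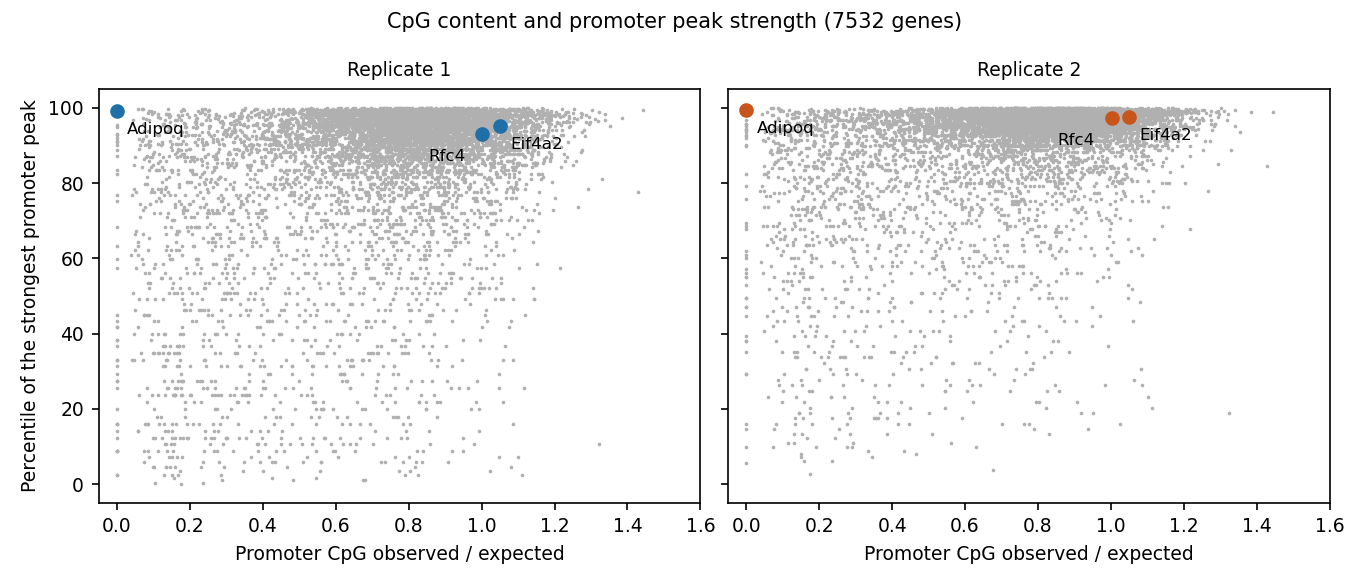
CpG observed over expected ratio of the RefSeq promoter (horizontal axis) against the percentile of the strongest promoter peak (vertical axis) in replicate 1 (left) and replicate 2 (right), 1 grey point per gene for 7532 genes with 1 matched promoter and a peak in both libraries (1 gene lies beyond the axis limit of 1.6). Adipoq stands at a ratio of 0 and the percentiles 99.1 and 99.5, and Eif4a2 and Rfc4 stand at ratios of 1.05 and 1.00.

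Upstream of Adipoq, 2 strong sites stood in the intergenic DNA before the promoter. The site from 23144476 to 23144645, centred at -1.98 kb, had values of 111 and 142, at the percentiles 96.3 and 98.0. It was the site nearest in strength to the promoter at this gene. The site from 23145296 to 23145505, at -1.14 kb, had values of 84 and 134, at the percentiles 85.8 and 94.9. In replicate 1 both sites lay in the same hotspot of 1470 bp, separate from the promoter hotspot of 1152 bp. In replicate 2 a single hotspot of 3736 bp ran from before the -1.98 kb site past the promoter and into the intron, ranking 349 by width of the 185029 hotspots of that library. The promoter hotspots of Eif4a2 measured 1767 and 1789 bp and those of Rfc4 1001 and 958 bp, against medians of 276 and 272 bp over all hotspots.

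The first intron, which takes up most of the Adipoq gene, held 2 further strong sites and several weaker ones. The site from 23149616 to 23149905, at +3.22 kb, had values of 95 and 132, and that from 23149016 to 23149205, at +2.57 kb, had values of 92 and 132. These stood at the percentiles 90.9 and 89.5 in replicate 1 and both at 94.1 in replicate 2. The sites at +5.04 kb (78 and 127), +6.34 kb (59 and 112) and +4.59 kb (48 and 113) were weaker in both libraries. Of these 3, the site at +4.59 kb had the widest gap in percentile, 54.7 in replicate 1 and 85.2 in replicate 2. Beyond +6.34 kb the gene body held no peak in replicate 1, whereas in replicate 2 peaks with values from 67 to 81 went on to +10.9 kb, across both later exons.

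Past the 3' end, 4 shared sites followed within a few kb and 1 stood farther away. From the gene outwards, their values were 50 and 105 at +11.8 kb, 65 and 111 at +12.1 kb, 54 and 108 at +12.6 kb, and 81 and 120 at +13.4 kb. The last of these, from 23159796 to 23159985, was the strongest of the group in each library, at the percentiles 84.2 and 88.8. The separate site from 23167196 to 23167365, at +20.7 kb, had values of 78 and 135, at the percentiles 82.3 and 95.3. Its hotspot had a −log10 q of 4.08 in replicate 1 and stood at the ceiling of 100 in replicate 2. From there to the St6gal1 promoter no shared site was found, and replicate 2 alone had weak peaks at +31.7 kb (69) and +43.3 kb (57).

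**Figure D3:**
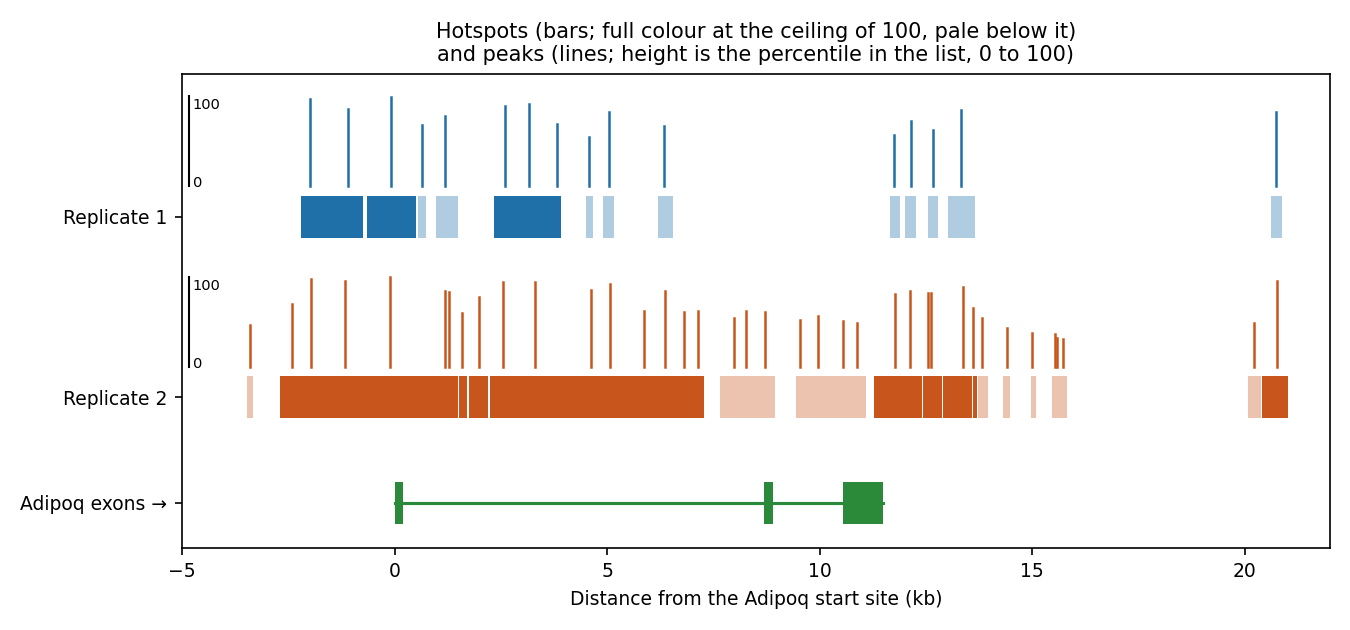
Peaks (lines, with heights giving the percentile from 0 to 100) and hotspots (bars, full colour at the ceiling of 100 and pale below it) of each library by distance from the Adipoq start site in kb, with the exons of Adipoq as blocks. In replicate 1 the hotspots form separate islands over 31.3% of the gene body, and in replicate 2 they fill 89.3% of it.

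The part of the Adipoq gene body inside hotspots differed widely between the libraries. In replicate 1 hotspots covered 31.3% of the 11493 bp, and in replicate 2 they covered 89.3%. Both were far above the medians over 21853 protein-coding genes, 2.16% and 3.89%. Adipoq ranked 449 in replicate 1 and 122 in replicate 2 among all genes, and 95 and 12 among the 7611 genes of 5 to 20 kb. The ratio of the libraries was 2.85 at Adipoq against a median of 1.55 over 15166 genes with cover in both, and 89.3% of those genes had a ratio at or below it. With hotspots at the ceiling alone, a choice made after the values were seen, the cover was 18.2% and 63.9%, with ranks of 872 and 220. With the replicate 2 hotspots shortened to the number of replicate 1, the cover in that library was 86.6%.

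The neighbours did not share this difference in size. Eif4a2 had 26.9% of its body in hotspots in replicate 1 and 22.5% in replicate 2, and Rfc4 had 9.16% and 9.42%. For St6gal1 the shares were 3.64% and 6.73%, and for Kng1 they were 0 in both. Other adipocyte genes varied. Fabp4, a fatty acid carrier, was at 99.6% in both libraries, and Plin1, the coat protein, was at 70.4% and 86.0%. Cidec, at 18.1% and 90.3%, and Lpl, which encodes lipoprotein lipase, at 23.6% and 78.9%, had differences as large as that of Adipoq or close to it. Slc2a4, the insulin-responsive glucose transporter, had 11.2% and 33.4%, and Pparg 7.65% and 17.6%. Cebpa, a short gene of 2636 bp, was the lowest of these markers, with 0 in replicate 1 and 15.7% in replicate 2. With 1 library on each side, none of these differences could be tested, and the part of depth or of culture in them was not tested.

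**Figure D4:**
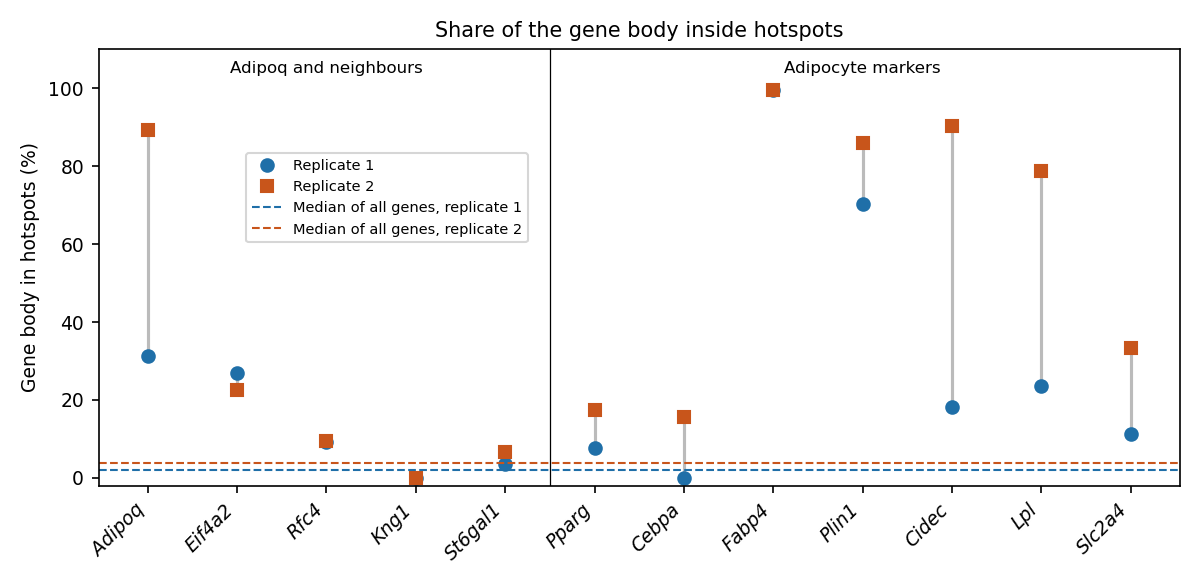
Percent of the gene body inside hotspots (vertical axis, 0 to 100) in replicate 1 (circles) and replicate 2 (squares) for Adipoq, its 4 protein-coding neighbours and 7 adipocyte markers; a grey line joins the libraries of a gene, and dashed lines are the medians over all protein-coding genes, 2.16% and 3.89%. Adipoq, Cidec and Lpl have the longest lines, and those of Eif4a2 and Rfc4 are short.

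Of the 30 peaks of replicate 2 without a partner in replicate 1, 23 lay within 10 kb of Adipoq, 12 of them in the gene body. The same stretch held 39 of all 66 replicate 2 peaks of the window. Over the window, 35 of 43 replicate 1 peaks (81.4%, interval 66.6 to 91.6) had a partner, an overlap of 1 bp or more with a replicate 2 peak, against 90.3% over the genome. In the other direction it was 36 of 66 (54.5%, interval 41.8 to 66.9), against 55.5% over the genome, so the window as a whole was near the background. Within 10 kb of the gene, 16 of 39 replicate 2 peaks had a partner (41.0%, interval 25.6 to 57.9), and in the rest of the window 20 of 27 (74.1%, interval 53.7 to 88.9). These intervals treat peaks of 1 library as separate counts, and the difference between the stretches was not tested. Of the 12 replicate 2 peaks without a partner in the gene body, all overlapped a hotspot of that library. Every site of the window with a replicate 2 peak did so, and this does not set the 12 apart. When the replicate 2 list was shortened to the length of the replicate 1 list, 35 of its peaks remained within 10 kb and 19 of them had no partner, against 23 of 39 as deposited.

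Sites found in replicate 2 alone were the weaker ones. Their percentiles in that library ran from 30.7 to 90.2 with a median of 54.0, whereas the shared sites had a median of 84.6. In the window, all 33 shared sites had a higher value and a higher percentile in replicate 2 than in replicate 1. Over the genome, 99.99% of shared sites had the higher value in replicate 2 and 92.0% the higher percentile, so the direction at the locus was that of the libraries as a whole. The order of the 33 sites by value was alike in the libraries, with a Spearman correlation of 0.91, given as a description since the sites of a library share its depth.

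Compared with other genes, Adipoq stood higher by the sites close to it than by those of the wide window. It had 14 shared sites within 10 kb of its body, against a median of 4, and ranked 1238 of 21853 genes and 54 of 7611 genes of 5 to 20 kb. Within 100 kb it had 33, against a median of 18, and ranked 2875. By shared sites centred more than 1000 bp from any start site and nearest to its own, it had 13 (14 in replicate 1 and 35 in replicate 2), against a median of 2, and ranked 1047. The site from 23147636 to 23147885 counts here by its centre and among the promoter sites by its overlap. Eif4a2 had 5 such distal sites and Rfc4 had 1. These ranks are descriptions, since windows of neighbouring genes overlap.

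The arrangement of peaks from 10 kb before to 10 kb after the start was compared with that of 17347 genes, using the mean over the libraries of the highest peak percentile in each of 20 bins of 1 kb. The most similar profiles were those of Zbtb7b (Pearson r 0.89), Fgf7 (0.88), Zfp36l1 (0.85), Plin4 (0.82) and Lamb1 (0.82). The median r over the genes was 0.16, and the gene at rank 100 had 0.63. The likeness was not equal in the libraries: for Zbtb7b r was 0.96 in replicate 1 and 0.65 in replicate 2, and for Plin4, a lipid droplet protein, it was 0.67 and 0.88. The r values are over bins of the same libraries and describe the position and strength of peaks alone.

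Motifs of factors active in adipocytes were found in a few sites of the locus. The C/EBP letters TTGCNNAA, searched on both strands, occurred in 4 of 33 shared sites of the window (12.1%), against 13.3% of all 117590 shared sites. Among the shared sites nearest to Adipoq the match was TTGCACAA on the minus strand from 23144608 to 23144615, in the -1.98 kb site printed above. The other 3 lay in an intron of Rfc4 and in 2 promoter sites of St6gal1. Sites of replicate 2 alone at -2.41, +1.59 and +15.0 kb from the Adipoq start held the letters too. The NFI letters TGGCNNNNNGCCA, with up to 1 mismatch, occurred in 5 sites (15.2%, against 19.7%), among them the Adipoq promoter, where the match from 23146504 to 23146516 began at -32 bp. The glucocorticoid receptor letters ACANNNTGT occurred in 3 sites (9.09%, against 5.87%), and the AP-1 letters TGANTCA in 2 (6.06%, against 9.98%). The +20.7 kb site held all of the last 3 motifs. The EBF letters CCCNNGGG occurred in 2 sites (against 7.02%), 1 of them the intronic site at +3.22 kb.

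Further motifs had few matches. The PPAR-RXR letters AGGTCANAGGTCA, with up to 2 mismatches, occurred in 2 sites of the window (6.06%, against 4.32%), both in introns of Rfc4, and in none of the 14 shared sites within 10 kb of Adipoq. The KLF-SP letters GGGCGG were found in 4 sites (12.1%, against 10.7%), all at the Eif4a2 and Rfc4 promoters, and the ETS letters CCGGAAG in 1 (against 2.56%), at Rfc4. The letters TTCNNNGAA of STAT were found in 1 site (against 6.45%), CCNNNAGNGGC of the CTCF core in 1 (against 4.29%), TATAAA in 2 (against 6.41%) and CACGTG in none (against 3.20%). The median site length was 170 bp in the window and over all shared sites, and matches of these motifs may overlap one another. With the search limited to the central 150 bp of each site, the PPAR-RXR letters occurred in 0 of 33 sites (against 3.77%). The EBF letters then occurred in 1 site, and in 0 of the 14 within 10 kb of Adipoq. Those of NFI occurred in 4 sites, and in 1 of the 14. Counts of the other motifs in the window were unchanged. A match shows the letters alone, and binding was not measured.

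Genes through which adiponectin is made and acts were mostly open at the promoter. Of 14 genes of the pathway, 11 had a promoter peak in both libraries, against the 55.3% of all protein-coding genes. The receptors Adipor1 (109 and 141) and Adipor2 (126 and 144) were both open, as was Cdh13, which encodes the adiponectin-binding T-cadherin, at lower values of 62 and 102. Adipor2 had 11 distal shared sites and Adipor1 had 1. Erp44, the chaperone that retains adiponectin in the endoplasmic reticulum, had values of 126 and 147, like those of Adipoq, and Ero1l, the oxidase that releases it, had 66 and 127. The activators Pparg and Cebpa had 122 and 145, and 49 and 103. Downstream, the adaptors Appl1 (108 and 132) and Appl2 (95 and 137), the AMPK subunit gene Prkaa1 (68 and 106) and the AMPK-activating kinase gene Stk11 (130 and 149) were open.

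The 3 members without a shared promoter peak were Gstk1, Prkaa2 and Ppara. Gstk1, which encodes an assembly factor of adiponectin multimers, and Ppara, a nuclear receptor of fatty acid oxidation, had no promoter peak in either library. Prkaa2, the other catalytic AMPK subunit, had a peak of 51 in replicate 2 alone. The median number of distal shared sites was 6 in the pathway list, against 2 over all genes, and Pparg, with 26, had the most. These counts were not adjusted for gene length, which is 129449 bp at Pparg. Pparg and Cebpa are also among the adipocyte markers, so the lists overlap.

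Among the relatives of adiponectin with a C1q domain, 5 of 12 had a promoter peak in both libraries, against 55.3% of all protein-coding genes. These were C1qtnf6 (117 and 147), C1qtnf5 (94 and 128), C1qtnf1 (72 and 114), C1qtnf3 (55 and 91) and C1qtnf12 (42 and 105). No promoter peak was found in either library at C1qtnf2, C1qtnf4, C1qtnf7 and C1qtnf9, nor at the complement genes C1qa, C1qb and C1qc, which are known from macrophages. The median number of distal shared sites in this list was 2, the same as over all genes. None of the 12 had a gene body covered as widely as that of Adipoq: the highest was C1qtnf6, with 18.7% and 34.7% in hotspots.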

How the data were processed

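DNase-seq peaks and hotspots of 2 libraries were used as deposited. Per the lists of text deposited with each library, the authors called regions on 1 alignment per library, with mm10 as the assembly, and did not pool replicates. The sources used here give no caller, aligner, filters or depth. The authors' deposited peak value, a score from 1 to 150 whose scaling is not stated, served to rank peaks within a list, and values of the libraries are set side by side with their percentiles. The deposited hotspot value is the −log10 of a q value, up to 100. Identical lines (20 and 33) were counted once, and 337 and 603 peaks off the 21 assembled chromosomes were left out.

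Positions count from 1 in GRCm38, with GENCODE release M21 as the annotation. Start sites were those of protein-coding transcripts of 21853 protein-coding genes. A shared site was a merged interval (overlap of at least 1 bp) with a peak of both replicates, promoter sites overlapped the 1000 bp around a start site, and distal sites, centred beyond it, went to the nearest start within 100 kb. RefSeq promoter sequences were matched by symbol (20143 sequences, 16515 genes). Python 3.11.15, numpy 2.4.6 and scipy 1.17.1 were used. The merging of peaks, the search for partners and the motif search were tested on simulated data.

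The genes named were Adipoq, Eif4a2, Rfc4, the protein-coding genes overlapping the window, the members of 2 lists (14 adiponectin pathway genes, 12 relatives with a C1q domain), the cell type markers and the 5 genes with the most similar profile. Members, lists and motifs were chosen with earlier results of these data known. With 1 group of 2 libraries no test was made. Alternatives were other overlaps, list lengths, windows, hotspots in place of peaks and each library alone.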

Additional observations from a re-analysis of the deposited data

How the results depend on the processing

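No paired analysis was possible because there was 1 group. Among the alternative values, 57 stayed near the value reported and 19 did not. Near meant within 1.5 times that value or, for shares of peaks with a partner, within its interval. The 33 shared sites became 41 to 62 with 1 library left out, and 62 was the count without replicate 1. The share of replicate 1 peaks with a partner rose from 81.4% to 94.6% with hotspots in place of peaks. The rank of Adipoq by shared sites, 2875, was 1878 with peaks at or above the median of their list, 4656 with hotspots, 1768 within 50 kb, 6405 within 200 kb and 1761 to 2223 with a library left out, the former without replicate 2. Adipoq promoter sites, 2 as reported, were 1 with hotspots or within 500 bp, 5 within 2500 bp and 1 to 3 with a library left out, 1 being the count without replicate 1. Its distal sites went from 13 to 6 with hotspots and to 14 to 35 with a library left out (35 without replicate 1). Eif4a2 distal sites fell from 5 to 1 with peaks at or above the median. For Rfc4, with a library left out, promoter sites were 1 to 3 (3 without replicate 2) and distal sites 1 to 4 (4 without replicate 1). Sites with C/EBP letters went from 4 to 2 with peaks at or above the median and to 4 to 7 with a library left out (7 without replicate 1). The Adipoq cover of 31.3% in replicate 1 was 18.2% with hotspots at the ceiling alone. This alternative, the shortened replicate 2 hotspots and the shortened list within 10 kb were added after the data had been seen. A left-out library removes the need for a partner, and wider windows hold more sites. Causes of the other changes were not tested. The unknown depth limits what can be said of sites found in 1 library.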

Other observations

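Among the 7611 protein-coding genes of 5 to 20 kb, 11 had a larger part of their body in hotspots than Adipoq in replicate 2, and they were named after their values had been seen. Angptl4, a secreted inhibitor of lipoprotein lipase, was covered over 90.1% in replicate 1 and 98.3% in replicate 2. Scd1, the desaturase that makes monounsaturated fatty acids, had 40.1% and 95.03%, and the lipid droplet gene Cidec had 18.1% and 90.3%. Agt, which encodes angiotensinogen, had 78.5% and 95.4%, and 1600014C10Rik had 83.0% and 98.8%.

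Of the other genes, Cyp1b1, a cytochrome P450, had 18.3% in replicate 1 and 99.9% in replicate 2, and Mknk2, a kinase of translation control, had 25.8% and 98.6%. Mat2a, the enzyme that makes S-adenosylmethionine, had 18.6% and 93.9%, and Cebpg, a member of the C/EBP family, had 19.3% and 91.0%. Cyren had 6.76% and 91.4%, and Dbp, a transcription factor of the circadian clock, had 42.9% and 90.1%. By the difference between the libraries, 58.0 percentage points at Adipoq, it ranked 52 of 21853 genes, against a median difference of 1.02 points.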
